A study of Mus musculus with 9 samples.

Results

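The RNA levels of 10 mouse imprinted genes were followed in NMuMG cells, an immortalized line from mouse mammary gland, with and without overexpression of the long noncoding RNA EPR. The genes H19, Igf2, Igf2r, Meg3, Rian, Mirg, Dlk1, Peg3, Peg10 and Cdkn1c were chosen by name, with earlier results of these data known. Each was found under a single gene identifier among the 52459 gene symbols of the abundance tables.

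RNA-Seq had been made from total RNA of 9 libraries in 3 groups of 3. Mock cells carried the empty vector, EPR cells the full EPR transcript, and EPRSTOPE cells a transcript in which the second codon of the open reading frame (glutamic acid) was turned into a stop, so that the RNA is made without its peptide. All cells, mock included, had been stably transfected with a pBICEP-based vector and selected with G418 as pools. They were grown in medium with serum and bovine insulin, without TGF-β. The labels do not say whether the 3 libraries of a group came from separate pools, so p-values measure the spread between libraries, which may be technical.

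Imprinted genes are transcribed mainly from the copy inherited from 1 parent, a state that is laid down as DNA methylation in the germ line and kept through cell division. Many of them act in growth: Igf2 encodes a growth factor, Igf2r the receptor that carries it to lysosomes for breakdown, and Cdkn1c an inhibitor of cell division. Several sit in clusters ruled by a noncoding RNA or a methylated control region, such as H19 beside Igf2, Airn across Igf2r, and Meg3, Rian and Mirg beside Dlk1. The tables hold no parental origin of the reads, so every level below is the sum of both copies.

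Only Igf2r and Peg3 were measured well in all 3 groups. Igf2r was 5.85-fold higher in EPR than in mock cells and 5.28-fold lower in EPRSTOPE than in mock cells. Peg3 went the other way in both comparisons, and Peg10 had reads in mock cells only. The other 7 genes had at most 10 counts in any library.

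The promoters of the 2 genes that moved in opposite directions are shown because imprinted promoters are commonly rich in CpG, the dinucleotide that is methylated. Both are the 250 bases before the RefSeq start, 5′ to 3′ on the gene's strand, with CpG in capitals, from a RefSeq promoter table of build GRCm38.p6 in which 7 of the 10 genes were found.
Igf2r, chr17:12769707-12769956, minus strand: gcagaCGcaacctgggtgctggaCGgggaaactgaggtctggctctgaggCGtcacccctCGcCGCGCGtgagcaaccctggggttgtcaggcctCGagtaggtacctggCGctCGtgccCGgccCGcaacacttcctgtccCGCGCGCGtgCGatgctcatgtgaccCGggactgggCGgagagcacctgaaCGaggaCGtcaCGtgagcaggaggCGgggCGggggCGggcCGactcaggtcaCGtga
Peg3, chr7:6730420-6730669, minus strand: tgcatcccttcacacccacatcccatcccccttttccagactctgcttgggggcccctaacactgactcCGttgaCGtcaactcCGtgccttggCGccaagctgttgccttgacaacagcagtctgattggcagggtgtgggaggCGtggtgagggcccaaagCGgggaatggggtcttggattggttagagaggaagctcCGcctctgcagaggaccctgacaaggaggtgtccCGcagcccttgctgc

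The Igf2r window holds 27 CpG, and 8.56% of the 32851 promoters in the table have as many or more. The Peg3 window holds 8 CpG, a number that 43.0% of promoters reach or pass, and the median promoter has 6. The letters TGCCGC, bound in methylated form by ZFP57, the zinc finger protein that protects imprints, were searched on both strands and occur in neither window, while 8.68% of all promoters hold them. DNA methylation was not analysed here.

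Library totals ran from 5972457 to 11876435 estimated counts, so that 3 counts correspond to 0.253 to 0.502 CPM, counts per 1000000 counts of a library. Counts of the EPR transcript, BC030870 in the annotation, were 0, 0 and 2 in mock cells, 271, 214 and 256 in EPR cells and 28, 39 and 33 in EPRSTOPE cells. EPR and EPRSTOPE cells thus differed in the amount of the RNA as well as in the stop codon. They were also separately transfected and selected populations. For each difference between them, the RNA amount, the peptide and the selected population cannot be told apart.

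Igf2r (ENSMUSG00000023830.13, chromosome 17 of GRCm38 from 12682406 to 12769664, minus strand) encodes the cation-independent mannose 6-phosphate receptor. Its level was 47.1, 50.2 and 49.1 CPM in the mock libraries, 278, 282 and 297 CPM in the EPR libraries, and 11, 8.22 and 8.86 CPM in the EPRSTOPE libraries. The 3 groups were fully apart, with EPR above mock and EPRSTOPE below it. The means were 48.8 ± 1.6 CPM in mock, 286 ± 9.81 CPM in EPR and 9.36 ± 1.46 CPM in EPRSTOPE cells (SD, n = 3).

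Against mock, the log2 fold change of Igf2r was 2.55 in EPR cells (SE 0.08, adjusted p = 2.01e-10, from the quasi-likelihood test of edgeR, adjusted by Benjamini and Hochberg's method over the 15370 genes tested). In EPRSTOPE cells it was -2.40 (SE 0.09, adjusted p = 1.2e-09, edgeR), a call that was lost with counts scaled from TPM (-1.35, adjusted p = 0.0445, edgeR). A gene was called changed at an adjusted p under 0.01 with a log2 fold change beyond 0.5, and both differences passed. Both comparisons use the same mock libraries. In bulk RNA, fewer cells with the transcript and less RNA per cell cannot be told apart.

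Between EPR and EPRSTOPE cells, Igf2r differed by 4.95 on the log2 scale (SE 0.09, adjusted p = 2.07e-11, edgeR), or 30.9-fold. With counts scaled from TPM this difference was 3.51 (adjusted p = 0.000851, edgeR). Among called genes of the same direction, ordered by size, Igf2r was number 73 of 1055 in this comparison, number 493 of 2336 in EPR against mock and number 421 of 1903 in EPRSTOPE against mock. Its place was thus nearer the top between the 2 overexpressing groups than against mock. An exact two-sided permutation test of the CPM values gave p = 0.1 in each of the 3 comparisons, the smallest that 3 against 3 libraries allow.

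Nearly all Igf2r counts fell on the full-length transcript Igf2r-201 of 8887 nucleotides, which took 97.9%, 99.4% and 94.9% of them in mock, EPR and EPRSTOPE cells. Tested over 45412 transcripts, Igf2r-201 had log2 fold changes of 2.62 for EPR against mock and -2.40 for EPRSTOPE against mock (adjusted p = 2.14e-05 and 3.35e-05, edgeR). Both differences of the gene were thus seen in its full-length form.

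The antisense noncoding RNA Airn starts within Igf2r and silences the paternal copy in most mouse tissues. Airn had 2.49, 2.53 and 4.15 CPM in mock, 4.71, 5.3 and 8.13 CPM in EPR, and 6.1, 5.34 and 2.76 CPM in EPRSTOPE cells. The EPRSTOPE libraries overlapped with both other groups, while the EPR libraries all lay above mock. None of its differences passed: the log2 fold changes were 0.95 for EPR against mock (adjusted p = 0.0371, edgeR), 0.58 for EPRSTOPE against mock and 0.37 between EPR and EPRSTOPE. In Gencode M21 the exons of Airn share 0 bases with those of Igf2r. Whether the counting used strand is not given in the sources used here, and the amount of Airn from reads in Igf2r introns was not tested.

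Peg3 (ENSMUSG00000002265.16, chromosome 7 from 6703892 to 6730431, minus strand) encodes a large zinc finger protein and is expressed from the paternal copy. Its level was 22.5, 22.9 and 21.6 CPM in mock, 15.3, 13 and 11.3 CPM in EPR, and 43.7, 33.4 and 37.6 CPM in EPRSTOPE cells. Here too the groups did not overlap, in the reverse order to Igf2r. The means were 22.3 ± 0.685, 13.2 ± 1.99 and 38.3 ± 5.17 CPM (SD, n = 3).

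Peg3 fell by 0.75 on the log2 scale in EPR cells (SE 0.13, adjusted p = 0.000475, edgeR) and rose by 0.77 in EPRSTOPE cells (SE 0.13, adjusted p = 0.000281, edgeR), each against mock. Both calls were lost with counts scaled from TPM (-0.63 and 0.68, adjusted p = 0.076 and 0.0589, edgeR). EPR cells had 2.88-fold less Peg3 than EPRSTOPE cells (log2 fold change -1.53, SE 0.13, adjusted p = 3.99e-06, edgeR). By size, Peg3 was number 1311 of 1980, 1698 of 2399 and 229 of 976 genes called in its direction in these comparisons, further from the top than Igf2r in each comparison. Exact permutation p was 0.1 in each of these comparisons.

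The main transcript Peg3-201 of 8694 nucleotides, with 82.3%, 72.6% and 82.5% of the counts in mock, EPR and EPRSTOPE cells, had the same directions (-0.85, 0.83 and -1.69) but did not pass when transcripts were tested singly (adjusted p = 0.0653, 0.0664 and 0.0107, edgeR).

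On a scale per transcript length (TPM), the order of the full-length forms turned between groups. Igf2r-201 stood at 3.59, 4.58 and 3.92 TPM in mock and 24.9, 28.1 and 25.7 TPM in EPR cells, above the 1.35, 1.97 and 1.44 TPM and the 0.972, 1.14 and 0.67 TPM of Peg3-201 in the same libraries. In EPRSTOPE cells Igf2r-201 had 1.08, 0.855 and 0.6 TPM, below the 3.94, 2.68 and 2.52 TPM of Peg3-201. The more abundant of the 2 transcripts was therefore Igf2r-201 in mock and EPR cells and Peg3-201 in EPRSTOPE cells.

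Peg10 (ENSMUSG00000092035.8, chromosome 6 from 4747306 to 4760517, plus strand) derives from a retrotransposon gag gene and is expressed from the paternal copy. It had 36, 29 and 55 counts in the mock libraries and 0 in all 6 libraries of EPR and EPRSTOPE cells. Mock cells thus held 4.38 ± 1.27 CPM (SD, n = 3), or 0.591, 0.398 and 0.497 TPM. Taking 3 counts over a group as the floor, Peg10 was at least 42.7-fold lower in EPR and at least 34.0-fold lower in EPRSTOPE cells than in mock, and no fold exists between these 2 groups. Peg10 passed the filter on low values through the mock libraries alone and could only be called lower, so no test is given for it. The mock counts were assigned to a transcript of 6667 nucleotides in library 203 and to one of 6567 nucleotides in libraries 204 and 205. Which form is made was therefore not settled by these counts, and the gene sum is used.

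**Figure D1:**
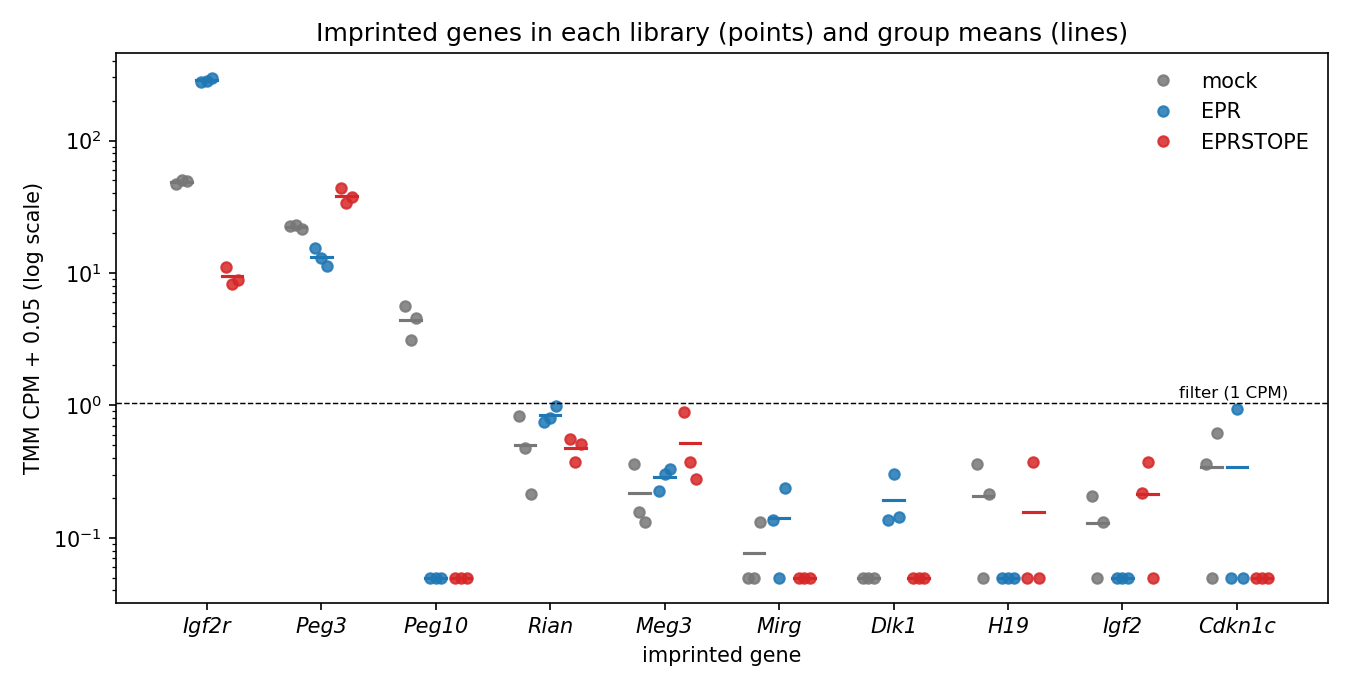
TMM-normalized CPM plus 0.05 on a log axis for the 10 imprinted genes, with 1 point per library, a line at each group mean and a dashed line at the filter of 1 CPM. Igf2r runs from 286 CPM on average in EPR to 9.36 CPM in EPRSTOPE cells, Peg3 runs the reverse way, Peg10 has reads in mock only, and the other 7 genes lie under the dashed line.

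Counted over the whole set, 1 of the 10 genes was called higher (Igf2r) and 2 lower (Peg3, Peg10) in EPR than in mock cells, where 28.1% of all genes tested were called. In EPRSTOPE against mock, 1 was higher (Peg3) and 2 were lower (Igf2r, Peg10), with 28.0% of all genes called. In EPR against EPRSTOPE, Igf2r was higher and Peg3 lower, with 13.2% of all genes called. Peg10, which entered the test through mock alone, could only be called lower. The 7 genes under the filter were not tested, and these counts say nothing of the set as a whole.

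The remaining 7 genes reached at most 0.934 CPM and at most 10 counts in a library. Of their 63 values, 29 were 0 and 54 were 3 counts or fewer. A difference between groups was not detectable for them at this depth.

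In the Dlk1 cluster on chromosome 12, the maternally expressed noncoding RNA Rian, a host of small nucleolar RNAs, had the most reads. Rian had 5, 4 and 2 counts in mock, 8, 6 and 10 with EPR and 3, 3 and 4 with EPRSTOPE. Meg3, the first noncoding RNA of the same cluster, had 2, 1 and 1 counts in mock, 2, 2 and 3 with EPR and 5, 3 and 2 with EPRSTOPE. Per depth, the EPR libraries of Rian (0.698 to 0.934 CPM) overlapped with mock and lay above EPRSTOPE (0.32 to 0.508 CPM), all under 1 CPM.

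Mirg, which carries microRNAs, had 1 count in all mock libraries together, 3 in EPR and 0 in EPRSTOPE cells. Dlk1, a transmembrane ligand related to Notch ligands, had 0 counts in mock and EPRSTOPE cells and 1, 2 and 1 counts in the EPR libraries. Each EPR library was therefore at or below the floor of 3 counts.

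On chromosome 7, the growth factor gene Igf2 had 1, 0 and 1 counts in mock, 0 in each EPR library and 1, 3 and 0 in EPRSTOPE cells. H19, the noncoding RNA that shares enhancers with Igf2, had 2, 0 and 2 counts in mock, 0 in each EPR library and 0, 3 and 0 in EPRSTOPE cells. Cdkn1c, the imprinted inhibitor of cyclin-dependent kinases, had 2, 0 and 7 counts in mock, 0, 7 and 0 in EPR and 0 in each EPRSTOPE library. Each of these genes had a mock library without a count, and none had more than 7 counts anywhere.

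The receptor gene Igf2r was thus measured in cells with almost no Igf2 RNA, and the rest of the insulin-like growth factor (IGF) axis was examined beside it. Of 15 listed genes 11 were tested, and 3 rose and 2 fell in EPR against mock, 2 rose and 2 fell in EPRSTOPE against mock, and 1 was higher in EPR than in EPRSTOPE. Of all genes tested, 15.2% rose and 12.9% fell, 15.6% rose and 12.4% fell, and 6.86% were higher and 6.35% lower in the same order of comparisons. The median log2 fold changes were 0.10, -0.09 and 0.16, beside -0.01, -0.04 and 0.01 over all genes tested.

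Igf2bp3, which encodes an RNA-binding protein named for Igf2 mRNA, rose from 2.6 ± 0.988 CPM in mock to 28.6 ± 1.14 CPM in EPR and 25.6 ± 2.1 CPM in EPRSTOPE cells, and Igfbp7, a secreted binding protein, from 219 ± 14.9 to 317 ± 19.9 and 446 ± 8.53 CPM (SD, n = 3). Irs1 and Irs2, adaptors of the IGF and insulin receptors, fell from 76.8 ± 3.34 to 36.3 ± 0.387 and 25.9 ± 4.94 CPM and from 80.5 ± 3.26 to 46 ± 2.83 and 45.2 ± 4.94 CPM (SD, n = 3). These 4 genes lay on the same side of mock in both groups, where Igf2r did not.

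Igfbp4, a further IGF-binding protein with little RNA, was the 1 gene of these 11 counted above as higher in EPR than in EPRSTOPE. It was also among the 3 counted as risen in EPR against mock. Igfbp4 had 0.777, 1.16 and 0.977 CPM in mock, 3.93, 4.04 and 4.86 CPM in EPR and 1.02, 0.534 and 0.805 CPM in EPRSTOPE cells (log2 fold change 2.47 for EPR against EPRSTOPE). Igfbp4 passed the filter on low values only through the EPR libraries and could only be called higher there, so no test is given for it. Its EPRSTOPE libraries overlapped with mock, unlike those of Igf2r.

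The signalling receptor gene Igf1r had log2 fold changes of -0.10 (95% interval -0.32 to 0.11) for EPR and -0.09 (-0.31 to 0.12) for EPRSTOPE against mock. M6pr, the other mannose 6-phosphate receptor gene, had -0.19 and 0.15 in EPR and EPRSTOPE cells relative to mock and -0.34 between them, none past the threshold and each opposite in sign to Igf2r.

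Cdkn1c belongs to the Cip/Kip inhibitors with Cdkn1a and Cdkn1b, which were both well measured. Cdkn1a rose from 6.37, 8.02 and 7.49 CPM in mock to 103, 94.3 and 93.2 CPM in EPR and 75.9, 84.7 and 78.8 CPM in EPRSTOPE cells (log2 fold changes 3.71 and 3.44, adjusted p = 3.29e-11 and 5.35e-11, edgeR). Cdkn1b fell by 0.69 on the log2 scale in EPRSTOPE against mock (adjusted p = 7.66e-05, edgeR) and had a log2 fold change of -0.47 in EPR against mock, short of the fold threshold. The inhibitor that is imprinted was thus the one near 0.

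To see whether the regions around the members moved with them, the nearest tested genes outside the imprinted lists were taken, 10 on each side where the chromosome held as many. The 20 neighbours of Igf2r, over 5.57 Mb, had median log2 fold changes of 0.11 and 0.05 in EPR and EPRSTOPE cells relative to mock and -0.04 between them. Of these, 3 were called higher and 1 lower in EPR against mock, 4 higher and 0 lower in EPRSTOPE against mock, and 1 higher and 2 lower in EPR against EPRSTOPE. Of all genes tested, 28.1%, 28.0% and 13.2% were called in either direction in these comparisons. The medians lay near 0, while Igf2r itself stood at 2.55, -2.40 and 4.95.

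Around Peg3, 20 neighbours over 5.42 Mb had medians of -0.05, -0.02 and -0.11, with 0 higher and 1 lower, 1 higher and 1 lower, and 0 higher and 1 lower in the same order of comparisons. Around Peg10, 17 neighbours over 4.69 Mb had medians of -0.14, -0.22 and 0.09, with 2 higher and 3 lower, 1 higher and 2 lower, and 2 higher and 3 lower, to be read against the same shares of all genes. For 1 neighbour of Igf2r with no count in mock, a value at its lower bound left both medians as given.

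**Figure D2:**
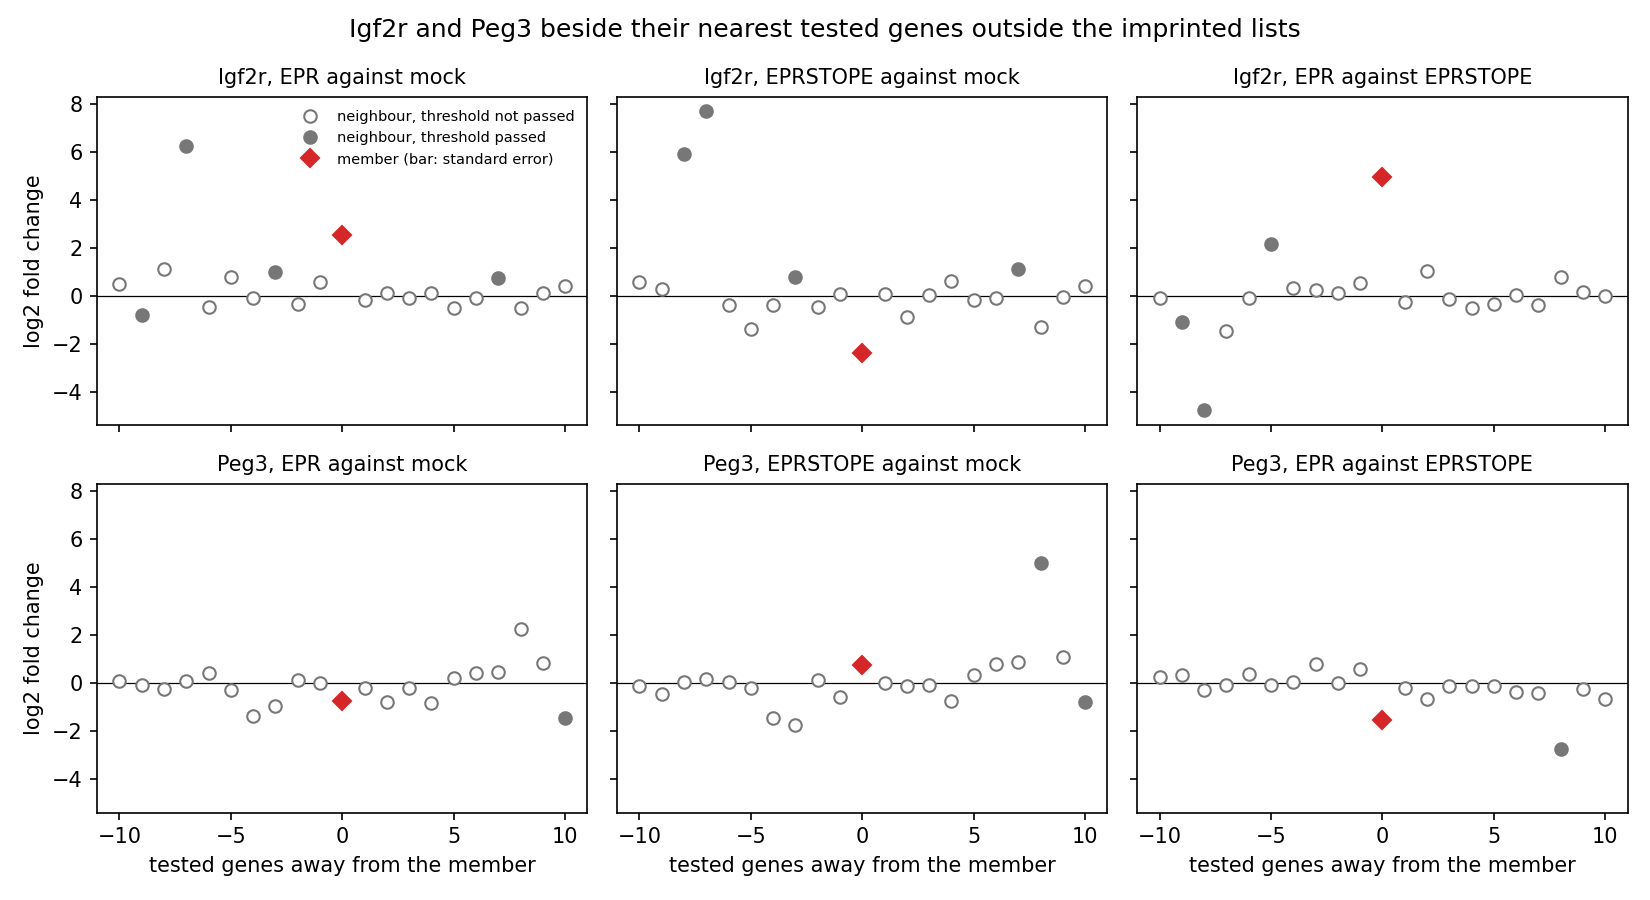
Fitted log2 fold changes of Igf2r (top) and Peg3 (bottom) and of the nearest tested genes outside the imprinted lists, in order along the chromosome, for the 3 comparisons. Diamonds are the members with their standard error, and filled circles are neighbours past the threshold. Igf2r at 2.55, -2.40 and 4.95 stands beside neighbours with medians of 0.11, 0.05 and -0.04.

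Further imprinted genes were read from a list of 64, of which 33 were tested. Together with the members, 36 of 74 imprinted genes (48.6%) passed the filter on low values, as did 29.3% of all symbols, and 10 had no count in any library. In EPR against mock 11 of the 33 were called higher and 4 lower, where 15.2% of all genes were called higher and 12.9% lower. In EPRSTOPE against mock 9 were higher and 5 lower (15.6% and 12.4% of all genes), and in EPR against EPRSTOPE 5 were higher and 1 lower (6.86% and 6.35%). Slc22a18, Pon3, Phlda2, Snrpn, Sfmbt2 and Tspan32 passed the filter only through overexpressing libraries, and Asb4 only through mock. Against mock each of these could be called in 1 direction only, and the counts say nothing of the list as a whole. The medians over the 33 were 0.26, 0.31 and 0.18, each slightly above the -0.01, -0.04 and 0.01 of all genes.

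The members' own clusters held some of these genes. In the cluster of H19, Igf2 and Cdkn1c, the transporter gene Slc22a18 had no count in mock, 132, 97 and 115 counts in EPR and 82, 169 and 112 counts in EPRSTOPE cells. Relative to mock it was at least 108-fold higher with EPR and at least 142-fold higher with EPRSTOPE. Slc22a18 thus had reads in every overexpressing library, next to members with almost none.

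Cd81, a tetraspanin gene of the same cluster, rose from 91 ± 5.94 CPM in mock to 302 ± 8.32 CPM in EPR and 219 ± 2.41 CPM in EPRSTOPE cells (SD, n = 3). Phlda2, a growth-restricting gene best known from placenta, had a log2 fold change of 2.62 in EPR against mock, with at most 8 counts in a mock library and no mock library at 1 CPM.

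Tspan32, another tetraspanin gene there, had 3 counts over the mock libraries, 6 over the EPR libraries and 17, 12 and 15 in the EPRSTOPE libraries. Its log2 fold change for EPR against EPRSTOPE was -3.19. Tspan32 reached 1 CPM in EPRSTOPE libraries only and could only be called higher there, so no test is given for it. Kcnq1ot1, the noncoding RNA that silences part of the cluster, was 1.43-fold higher in EPR than in EPRSTOPE (adjusted p = 0.000123, edgeR), close to the fold threshold.

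In the Dlk1 cluster, Dio3, which encodes an enzyme that inactivates thyroid hormone, had 7.92, 6.65 and 7.33 CPM in mock, 29.9, 25.8 and 23.4 CPM in EPR and 13.9, 16.9 and 12.9 CPM in EPRSTOPE cells. The 3 groups did not overlap, and all 3 differences passed (log2 fold changes 1.86 and 1.01 in EPR and EPRSTOPE cells relative to mock, and 0.85 between them, adjusted p = 6.2e-07, 0.000154 and 0.000577, edgeR). Dio3 was thus well measured where the Dlk1, Meg3 and Mirg libraries each held at most 5 counts.

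Near Peg10, Pon3, a paraoxonase gene, went from 0, 6 and 2 counts in mock to 61, 52 and 69 in EPR and 30, 30 and 59 in EPRSTOPE cells (log2 fold changes 4.37 and 4.08). Asb4, of an adaptor family for protein degradation, went from 23, 22 and 17 counts in mock to 2, 0 and 3 in EPR and 1, 1 and 2 in EPRSTOPE cells (log2 fold changes -3.74 and -3.71). Sgce, which lies head to head with Peg10, was not tested: it had 0, 14 and 7 counts in mock, 3 over the EPR libraries and 0 in EPRSTOPE cells. Asb4 and Peg10 reached 1 CPM in mock libraries only, and Pon3, like Slc22a18, in EPR and EPRSTOPE libraries only, so each could be called in 1 direction only against mock and no test is given for them.

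Beside Peg3, Usp29, a ubiquitin protease gene read from the same control region in the other direction, stood at 1.89 ± 0.175 CPM in mock, 0.969 ± 0.297 CPM in EPR and 0.696 ± 0.327 CPM in EPRSTOPE cells (SD, n = 3). None of its differences passed (adjusted p = 0.0887, 0.0197 and 0.454, edgeR). The EPR and EPRSTOPE libraries of Usp29 all lay below mock, while those of Peg3 lay below mock in EPR and above it in EPRSTOPE cells.

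Outside the members' clusters, Peg12 and Herc3 fell in both overexpressing groups (log2 fold changes -2.56 and -0.93 in EPR, -2.88 and -1.08 in EPRSTOPE cells), and H13 and Trappc9 rose in both (0.58 and 0.80 in EPR, 1.0 and 0.99 in EPRSTOPE cells). Zrsr1 was called higher (1.31) and Copg2 lower (-0.67) in EPR against mock. Mkrn3 and Nespas were called lower (-1.29 and -1.05) in EPRSTOPE against mock. Sfmbt2 had 15 counts over the mock and 234 over the EPR libraries (log2 fold change 3.87). Sfmbt2 passed the filter only through overexpressing libraries and could only be called higher against mock, so no test is given for it. Between EPR and EPRSTOPE, Ube3a and Mcts2 were higher in EPR (0.59 and 0.84). Snrpn had 1 count over the mock, 133 over the EPR and 13 over the EPRSTOPE libraries. Snrpn passed the filter only through the EPR libraries and could only be called higher there, so no test is given for it. Reads of Zrsr1 and Mcts2 may be shared with the copies Zrsr2 and Mcts1, Snrpn shares its transcript with Snurf, and Nespas is antisense to Gnas, so these values are uncertain. Of the 6 genes called between EPR and EPRSTOPE, Dio3 was also called against mock. Tspan32 and Snrpn, with only 3 and 1 counts over the mock libraries, were also among the 6. Each passed the filter through 1 group only and could be called in 1 direction only, so no test is read from them. None of the 33 was called on opposite sides of mock in the 2 groups, as Igf2r and Peg3 were. For those that could be called in 1 direction only, the filter fixed this outcome. The share of all genes tested that were called on opposite sides was not counted. Outside these lists, Ccnd2 ran in the order of Igf2r (means 175, 333 and 82.3 CPM in mock, EPR and EPRSTOPE cells).

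**Figure D3:**
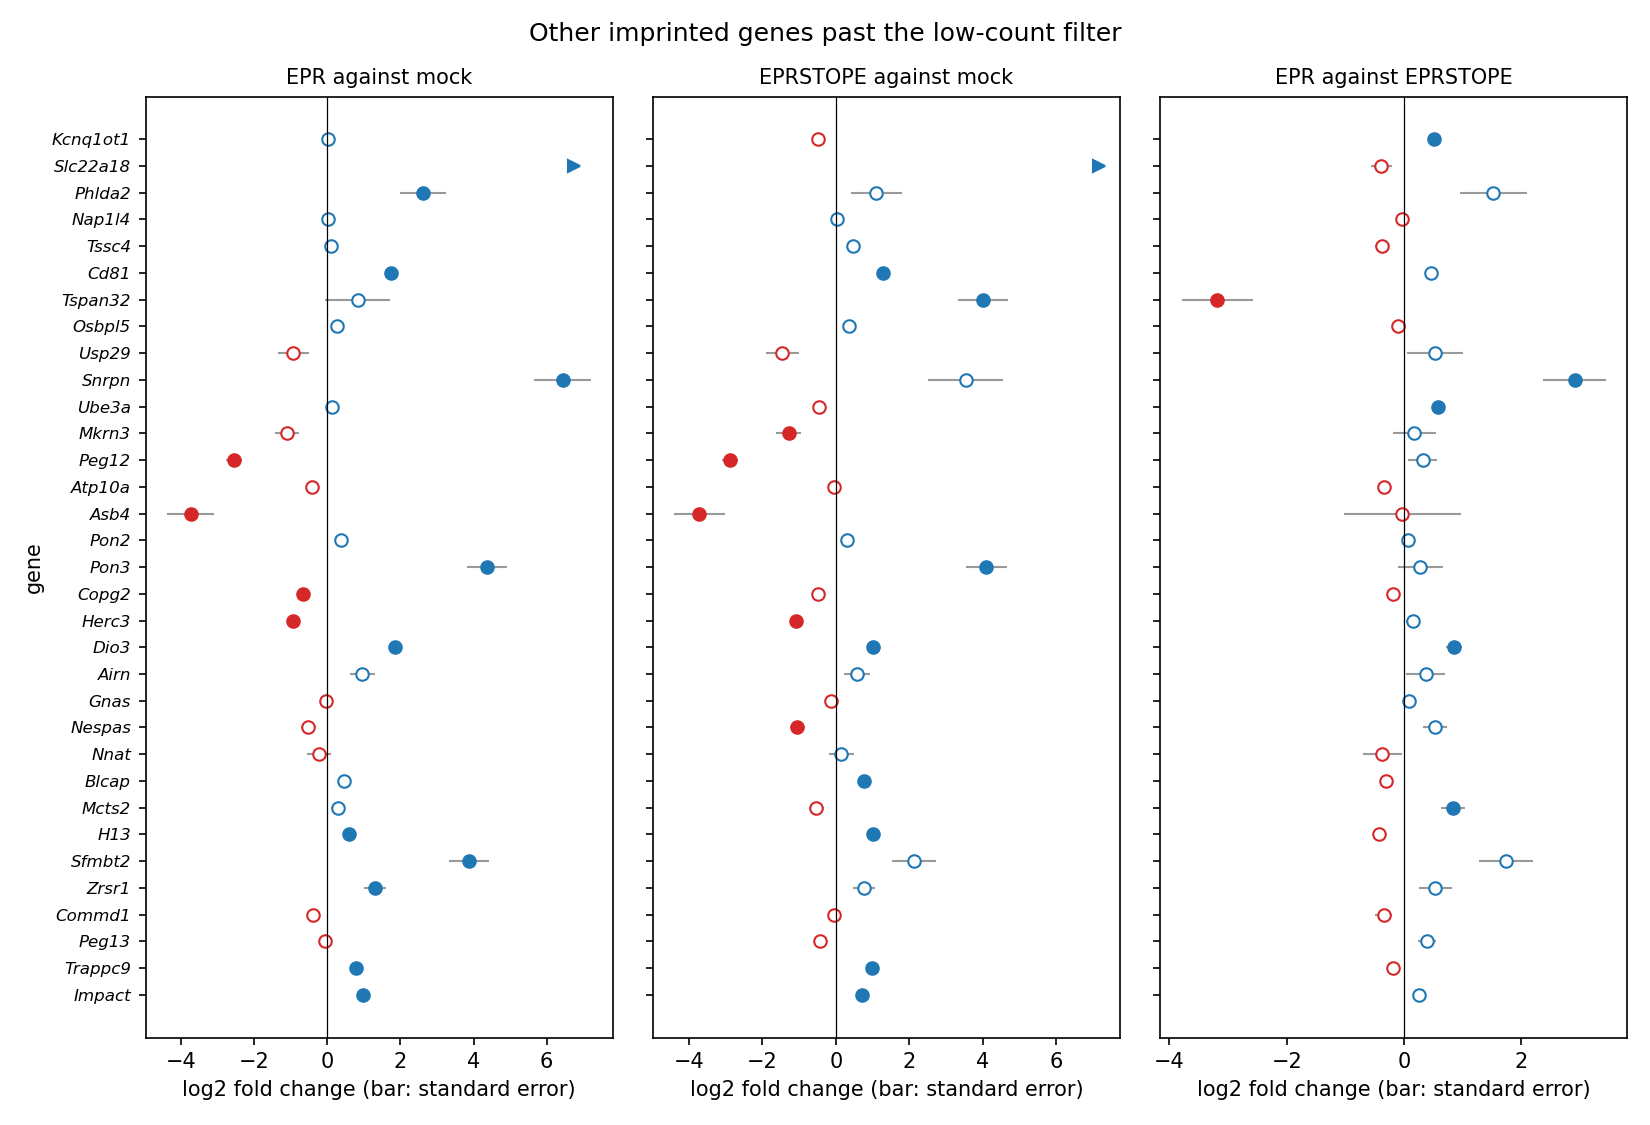
Log2 fold changes with standard errors for the tested imprinted genes in the 3 comparisons. Filled symbols passed the threshold, and triangles are lower bounds for genes without a count in 1 group. Of the 33 genes beyond the members, 11 were higher and 4 lower in EPR against mock, 9 and 5 in EPRSTOPE against mock, and 5 and 1 in EPR against EPRSTOPE. Genes that passed the filter through 1 side of a comparison only are included.

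Imprints are kept by enzymes and binding proteins that copy or guard DNA methylation, and 12 of 15 such genes were tested. In EPR against mock 2 rose and 3 fell, in EPRSTOPE against mock 2 rose and 1 fell, and in EPR against EPRSTOPE 0 were higher and 2 lower. These are 41.7%, 25% and 16.7% of the 12, beside 28.1%, 28.0% and 13.2% of all genes tested. The medians were -0.27, -0.11 and -0.04.

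Dnmt1, the maintenance DNA methyltransferase, stood at 331 ± 1.78 CPM in mock, 174 ± 2.21 CPM in EPR and 254 ± 14.3 CPM in EPRSTOPE cells (SD, n = 3), and EPR cells were below EPRSTOPE cells (log2 fold change -0.54, adjusted p = 1.53e-05, edgeR). Uhrf1, which brings that enzyme to newly copied DNA, had 195, 200 and 205 CPM in mock, 98.8, 97 and 96.6 CPM in EPR and 203, 212 and 203 CPM in EPRSTOPE cells. Its EPRSTOPE libraries overlapped with mock and all EPR libraries lay below, a difference of -1.08 on the log2 scale between EPR and EPRSTOPE (adjusted p = 4.27e-08, edgeR). Zfp57 and Tet2, which oxidizes methylated cytosine, rose (log2 fold changes 1.0 and 0.99 in EPR, 0.55 and 0.98 in EPRSTOPE cells), and Smchd1, a chromatin protein needed at several imprinted clusters, fell (-0.67 and -0.55). Unlike Igf2r and Peg3, none of these genes was called on opposite sides of mock in EPR and EPRSTOPE cells.

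**Figure D4:**
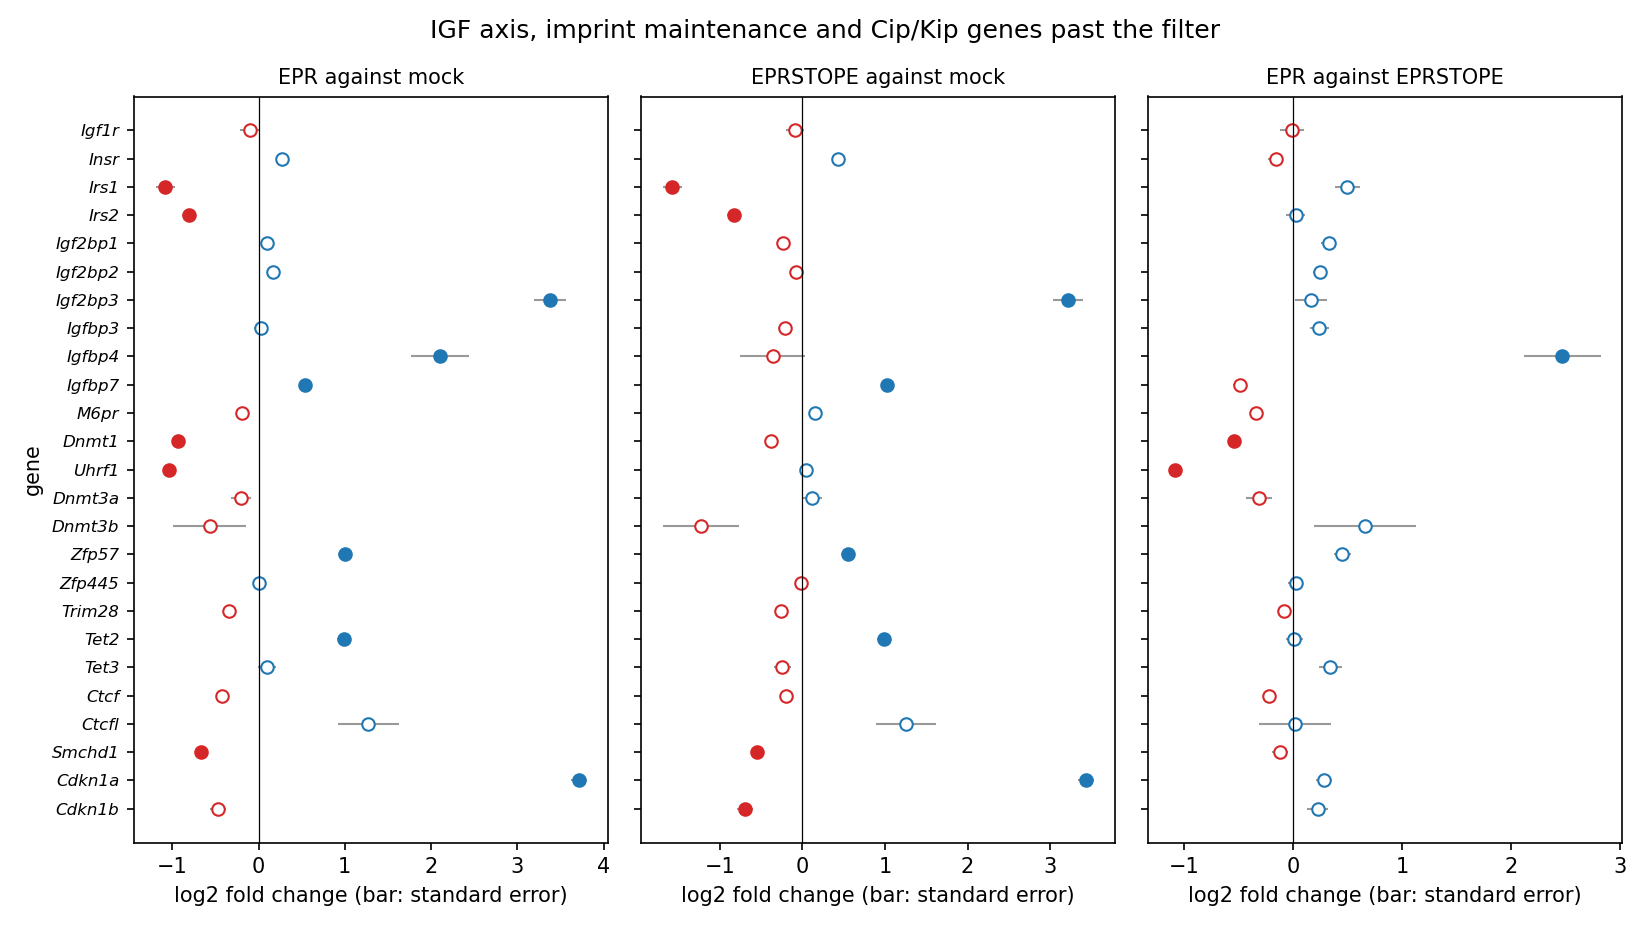
Log2 fold changes with standard errors for tested genes of the IGF axis, the Cip/Kip inhibitors and imprint maintenance. Filled symbols passed the threshold. Cdkn1a and Igf2bp3 lie at 3.71 and 3.38 in EPR against mock, and Uhrf1 lies at -1.04 there and at 0.05 in EPRSTOPE against mock.

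The genes whose log2 CPM ran most like that of Igf2r over the 9 libraries were Tnks2, Slk and Ccnd2 (Pearson r = 0.997, 0.997 and 0.993). Ccnd2, which encodes cyclin D2, stood at 175 ± 8.65 CPM in mock, 333 ± 19.2 CPM in EPR and 82.3 ± 1.76 CPM in EPRSTOPE cells (SD, n = 3). The genes most like Peg3 were Ripk2, Nsun2 and Slc20a1 (r = 0.990, 0.984 and 0.983), and those most like Peg10 were CT033778.1, Hoxb7 and Kcns3, all without a count in EPR and EPRSTOPE cells. The 9 libraries fall into 3 groups, so r describes the order of the groups.

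The groups also differed in cell type markers. Of 11 epithelial markers, 3 reached 1 CPM in mock, 6 with EPR and 5 with EPRSTOPE, with summed levels of 3692 to 4157, 9493 to 10602 and 10687 to 11023 CPM. Krt8 was high in every group, while the defining marker Cdh1 had 0.311, 1.16 and 1.06 CPM in mock against 569, 542 and 558 CPM in EPR and 400, 427 and 381 CPM in EPRSTOPE cells. Mock libraries thus carried keratin RNA with almost no Cdh1. Of 11 stromal markers, 2 reached 1 CPM in each group, with sums of 100 to 111 CPM in mock, 50.5 to 52.8 CPM in EPR and 49.5 to 57.1 CPM in EPRSTOPE cells. The markers that reached it were Cxcl12 and Zeb1 in mock and Pdgfra and Zeb1 in the other groups. Cxcl12 had 344, 472 and 544 counts in mock and 0 in the other 6 libraries, while Pdgfra had 0 counts in mock, 35 over the EPR and 32 over the EPRSTOPE libraries. Zeb1 had log2 fold changes of -0.13 and -0.11 in EPR and EPRSTOPE cells relative to mock, neither past the threshold. These 3 markers thus did not move together.

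Sums of the 4 neural markers were 30.3 to 33.4, 0.505 to 2.52 and 5.13 to 7.82 CPM, and those of the 6 myoepithelial markers 10.7 to 12.2, 1.39 to 1.83 and 2.88 to 3.56 CPM, in mock, EPR and EPRSTOPE cells. The endothelial (4 markers), immune (4) and muscle (3) sums stayed at or below 16.7, 4.55 and 0.505 CPM. The epithelial and stromal sums of both overexpressing groups lay on the same side of mock, while Igf2r and Peg3 each lay above mock in one of these groups and below it in the other. The part of marker differences in the levels of Peg10, Igf2r and Peg3 was not tested.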

How the data were processed

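RNA-Seq of 9 NMuMG libraries (3 mock, 3 EPR, 3 EPRSTOPE) was analysed. Libraries were total RNA, stranded and paired-end. Per the submitters' processing notes the authors used bcl2fastq 2.0 and kallisto 0.43.1, and they deposited an estimated count and a TPM value per Gencode transcript, the TPM scaled by the authors by effective length to 1000000 per library. The strand setting is not given in the sources used here.

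Estimated counts of 131100 transcripts were summed by gene symbol and rounded. The 15370 genes that reached 1 CPM in 3 or more libraries entered edgeR 4.0.16 (R 4.3.3; TMM, quasi-likelihood, 1 factor of 3 levels, all 9 libraries). Changed means adjusted p (Benjamini-Hochberg) under 0.01 and log2 fold change beyond 0.5. CPM values are TMM-normalized. Positions are from Gencode M21. The floor of 3 counts covers counting error only. Replicate pairs differed by more than sampling noise (chi-square per degree of freedom 4.64 to 10.5). Scripts were tested on simulated data.

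The members and lists were chosen with earlier results of these data known. Named beyond the members were, per comparison and direction, up to 6 called genes of the imprinted list with the largest change and at least 5 CPM in the higher group, called genes in a member's cluster, called genes of the other lists at 5 CPM, and the 3 genes with the highest correlation per member. Airn, Usp29, Sgce, Igf1r, M6pr, Igfbp4, Snrpn, Mkrn3 and the markers Cdh1, Krt8, Cxcl12, Zeb1 and Pdgfra were added after their values were seen. Alternatives were DESeq2 1.42.0, limma-voom 3.58.1, DESeq2 size factors, other filters, counts scaled from TPM, fits of only the groups compared, other thresholds, leaving out each library, and, chosen after seeing the data, transcripts in place of genes.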

Additional observations from a re-analysis of the deposited data

Results flagged for a closer look

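Igf2r differed between the effects of EPR and EPRSTOPE, each against mock, by 4.95 on the log2 scale in a direct test (adjusted p = 2.07e-11, edgeR), and the CPM of 3 of 3 EPR libraries lay above all EPRSTOPE libraries. For Peg3 the same difference was -1.53 (adjusted p = 3.99e-06, edgeR), with 3 of 3 EPR libraries below all EPRSTOPE libraries. In both genes the effects against mock had opposite signs, and the direct contrast does not use the mock means.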

How the results depend on the processing

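Of the values recomputed under the alternatives, 291 kept their call or stayed within 1.5 times the count, 8 lost a call, 13 counts moved further, and none changed direction. No paired analysis was possible because the library numbers differ between the groups. Peg3 lost its call in several settings. With counts scaled from TPM its log2 fold change was -0.63 in EPR (adjusted p = 0.076) and 0.68 in EPRSTOPE cells (adjusted p = 0.0589, edgeR), each against mock, and Igf2r was -1.35 in EPRSTOPE against mock (adjusted p = 0.0445, edgeR) and 3.51 between EPR and EPRSTOPE (adjusted p = 0.000851, edgeR). This left 1 member called in EPRSTOPE against mock, and 907 genes (463 higher, 444 lower) and 2 other imprinted genes in EPR against EPRSTOPE. In single libraries the TPM of Igf2r-202 and Igf2r-204, of 245 and 261 nucleotides, reached 4.91 and 7.57 on fewer than 10 counts, but the cause of these losses was not tested. With transcripts in place of genes, Peg3-201 had -0.85, 0.83 and -1.69 in the 3 comparisons and no call. A fold threshold of 1 on the log2 scale removed Peg3 against mock (-0.75 and 0.77), and gave 2296 and 2373 genes for EPR and EPRSTOPE relative to mock and 1001 between them, with 2 other imprinted genes in the last. An adjusted p under 0.05 without a fold threshold gave 7478, 7442 and 4637 genes and 23, 25 and 12 other imprinted genes. Leaving out 1 library at a time, Igf2r ranged from 2.52 to 2.57, from -2.51 to -2.31 and from 4.86 to 5.06, and Peg3 from -0.88 to -0.62, from 0.67 to 0.86 and from -1.65 to -1.41, in the same order. At this depth, 54 of the 63 values of the 7 untested members were 3 counts or fewer.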
